A study of Gossypium hirsutum with 2 samples.

Results

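The trichome and fibre genes E6, HOX3 and GHTTG1 were examined in leaves of Upland cotton (Gossypium hirsutum), through 3 probe sets of the 24132 on the Affymetrix cotton array. The members are every probe set that the platform annotation gives to a single gene whose alias is E6, HOX3 or GHTTG1. The gene table holds 4 such genes, and 3 of them, out of 520 genes that the annotation gives a probe set of their own, are on the array: LOC107913945 (E6), LOC107904747 (HOX3) and LOC107938089 (GHTTG1). A further locus with the alias E6, LOC107905808, has no probe set of its own in the annotation used here. The aliases chose the probe sets, but the genes were picked with their signals on these arrays known, so levels and differences are given as descriptions and with no test.

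Leaves of drought-stressed plants, from which furrow irrigation was withheld after seedling emergence, were compared with leaves of well-watered plants in paired plots of the same field. All plants were Acala 1517-99, a cultivar that the series title calls drought tolerant, and the third topmost leaf was taken 9 days after water was withheld. The labels conflict on age, since the 9 weeks they state exceed the time from sowing to sampling that their dates give. The labels mention 8 plants per replicate and 3 plots per treatment, but the files used here hold 1 array per treatment, and the labels do not say whether plots were pooled. The spread between plants or plots therefore cannot be estimated, no p-value is printed, and every difference is one between these 2 arrays. Whole leaves were used, so fewer cells of a type and less RNA per cell cannot be told apart.

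Cotton fibres are single-celled outgrowths of the seed coat epidermis and share regulators with leaf trichomes, the hairs of the leaf surface. In Arabidopsis, trichome fate is set by a complex of MYB, basic helix-loop-helix and WD-repeat proteins, and homeodomain factors of the HD-ZIP IV class act downstream of it. GHTTG1 encodes a cotton WD-repeat protein of that kind, which can restore trichomes to an Arabidopsis mutant that lacks its own. HOX3 encodes an HD-ZIP IV factor that promotes fibre elongation in cotton. E6 encodes a protein whose transcript is abundant in elongating fibres, and its promoter is widely used to drive transgenes there.

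In leaf, the 3 genes had low to moderate signals and did not move together. E6 and HOX3 had lower signals in drought leaves, close to the level of controls without a plant target, and GHTTG1 had a higher signal that was well clear of those controls on both arrays. The values are MAS5 signals, linear intensities that Affymetrix software computes per probe set. They have no absolute unit, and levels of different probe sets depend on their probes, so the genes are placed against controls of the same array and not ranked against each other.

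GHTTG1, the WD-repeat regulator, had a signal of 446.6 in drought leaves and 341.4 in well-watered leaves. These signals lay above 84.3% of plant probe sets on the drought array and 80.3% on the well-watered array. Background was read from 51 reporter controls, probe sets whose IDs mark reporter genes and not cotton transcripts; another reporter control, bright on both arrays (16611 and 13616), was left out. Both GHTTG1 signals were above all 51, at 3.11 times their 95th percentile on the drought array and 4.51 times on the well-watered array. The log2 difference, drought minus well watered, was 0.39, a ratio of 1.31.

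E6, the fibre protein gene, had a signal of 92.3 in drought leaves and 216.0 in well-watered leaves. The well-watered signal was above all 51 reporter controls, at 2.85 times their 95th percentile, while the drought signal was 0.642 times that percentile and 6 of the 51 were as high or higher. Its place among plant probe sets was the 54.6th percentile on the drought array and the 72.6th percentile on the well-watered array. The log2 difference was -1.23, and the signal ratio of drought over well watered was 0.427.

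HOX3, the homeodomain gene, had a signal of 66.8 in drought leaves and 104.1 in well-watered leaves. On the drought array 11 of the 51 reporter controls were at or above it, and on the well-watered array 1 was. It lay at 0.465 times the reporters' 95th percentile in drought leaves and at 1.38 times in well-watered leaves. Its place among plant probe sets was the 45.5th percentile on the drought array and the 58.0th percentile on the well-watered array. The log2 difference was -0.64, a ratio of 0.642. HOX3 was thus within the range of the reporter controls on both arrays, and E6 on the drought array.

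**Figure D1:**
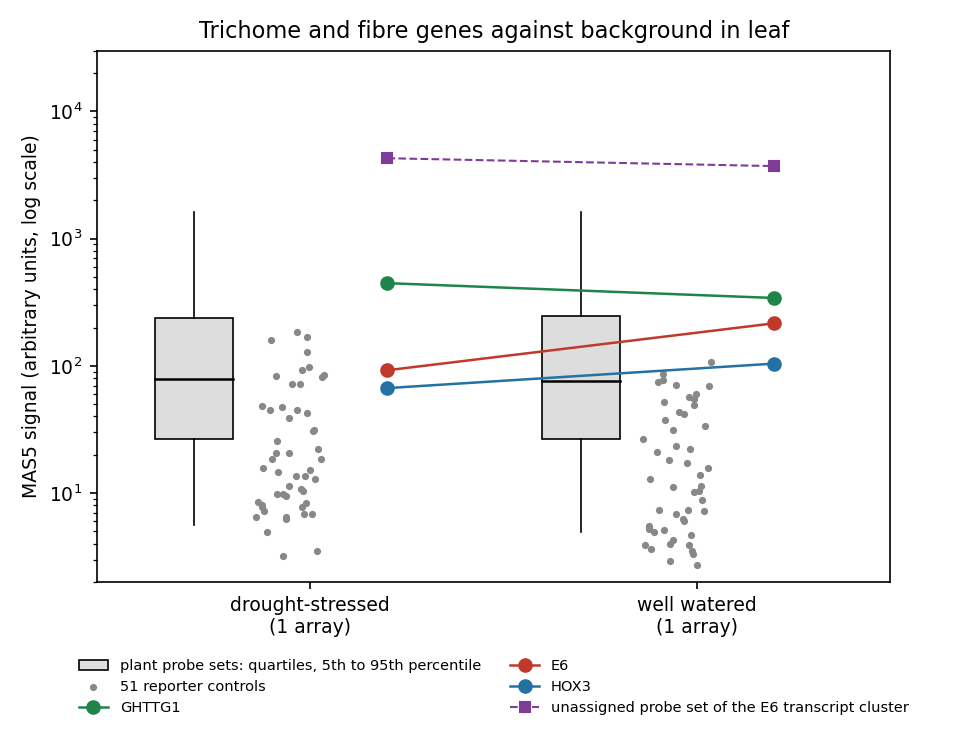
MAS5 signal (log scale) on the drought-stressed array (left) and the well-watered array (right), 1 array each. Boxes show the quartiles and lines the 5th to 95th percentile of 23977 plant probe sets, and grey points the 51 reporter controls. GHTTG1 lies above every grey point on both arrays, E6 above all of them only on the well-watered array, and HOX3 among them on both.

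The reporter controls themselves were brighter on the drought array, with a median signal of 15.6 and a 95th percentile of 143.8, against 11.4 and 75.7 on the well-watered array. Their median log2 difference was 0.70, and it ranged from -2.40 to 3.16. E6 and HOX3 differed in the opposite direction to most reporters: 5 of the 51 had a difference as low as that of E6 and 9 as low as that of HOX3, while 32 had one as high as that of GHTTG1. Among the 9 reporters whose mean signal reached the minimum used for plant probe sets (72.3, the median of the mean log2 signal), differences ran from -0.33 to 2.16. Most of those 9 reached it through a high signal on the drought array, such as a reporter at 186 there and at 41.6 on the well-watered array. The filter thus favours positive differences among reporters, so this range cannot be set against E6 or HOX3.

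Detection calls, which state whether a probe set was judged present on an array, exist only for the 110 probe sets in the authors' deposited table, and none of the 3 genes is among them. They give the calls of listed probe sets with similar signals. In the authors' deposited table, 15 of the 25 probe sets with a drought signal within 1.5-fold of that of E6 were called present and 9 absent, while all 38 near its well-watered signal were called present. Near the signal of HOX3, the authors' deposited table has 10 of 34 called present on the drought array and 33 of 34 on the well-watered array. Near that of GHTTG1, all 9 on the drought array and all 37 on the well-watered array were present in the authors' deposited table. The authors' deposited table lists 88 probe sets as lower and 22 as higher in drought leaves, so dim drought signals are over-represented in it and these shares cannot be read as shares of the array. Over all 110 in the authors' deposited table, 52 were called present on the drought array and 104 on the well-watered array. The well-watered shares near the 3 genes are close to that of the whole list, so they say little about signal level.

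Of the 3 members, E6 was at least 2-fold lower in drought leaves by the signals as deposited, and none was 2-fold higher. Over the array, 2.56% of the 11989 plant probe sets that reached the minimum were at least 2-fold lower and 1.82% at least 2-fold higher. Since dim probe sets vary more, each gene was also set beside probe sets that reached the minimum and whose mean log2 signal lay within 0.25 of its own. Among 1671 such neighbours of E6, 3.95% were at least 2-fold lower, and 39 (2.33%) had a difference as low as that of E6. Among 1857 around HOX3, 6.3% were at least 2-fold lower, and 272 (14.6%) were as low as HOX3. This window was cut short on the dim side, since HOX3 lay 0.21 above the minimum on the log2 scale. Among 1112 around GHTTG1, 0.719% were at least 2-fold higher, and 101 (9.08%) were as high as GHTTG1. E6 thus lay outside the middle 90% of differences at its signal level, which ran from -0.91 to 0.77, while HOX3 (-1.10 to 1.07) and GHTTG1 (-0.62 to 0.47) lay inside it.

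**Figure D2:**
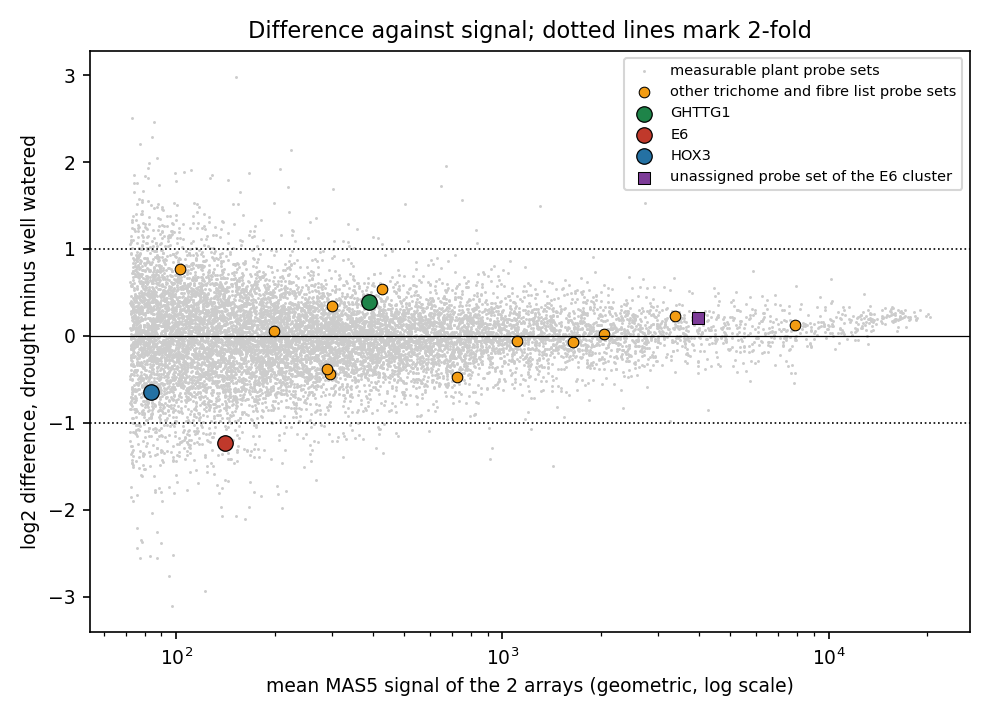
Log2 difference (drought minus well watered) against the mean signal of the 2 arrays for 11989 plant probe sets (grey), with 1 point per probe set and dotted lines at 2-fold. E6 (-1.23) lies below the lower line at a mean signal where the grey cloud is still wide, HOX3 (-0.64) within the cloud near its dim end, and GHTTG1 (0.39) within its upper part.

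The gap between GHTTG1 and E6 was 1.61 on the log2 scale, and that between GHTTG1 and HOX3 was 1.03. These gaps do not depend on how the arrays are scaled as a whole. They were 1.63 and 1.11 with intensity-dependent centring, and 1.39 and 0.85 with a pseudocount.

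The scale sets the size of each difference. Set against 27 hybridisation spike-in controls, whose median log2 difference was 0.25 (0.05 to 0.40), all values are lower by that amount, which gives -1.47 for E6, -0.89 for HOX3 and 0.14 for GHTTG1. With a pseudocount of 26.4, E6 was at -1.03, HOX3 at -0.49 and GHTTG1 at 0.36. Each gene kept its sign under these and the other 3 scalings, but none of the 5 deals with background. With signals under the reporters' 95th percentile raised to it, E6 was lower by 1.5-fold in place of 2.34-fold and GHTTG1 was as before; no fold can be given for HOX3, whose well-watered signal lies under that limit of the drought array. The size of the E6 difference is therefore imprecise, and its place past 2-fold rests on a drought signal within the range of the reporter controls. For comparison, the 2 brightest probe sets of a gene were taken over 60 genes. Their values differed with a robust SD of 0.26 per probe set (0.44 as a root mean square). The spike-in value of GHTTG1 is smaller than both measures of this spread, and its value as deposited (0.39) lies between them. Probe sets of a gene share the RNA of the array, so this spread leaves out variation between plants.

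**Figure D3:**
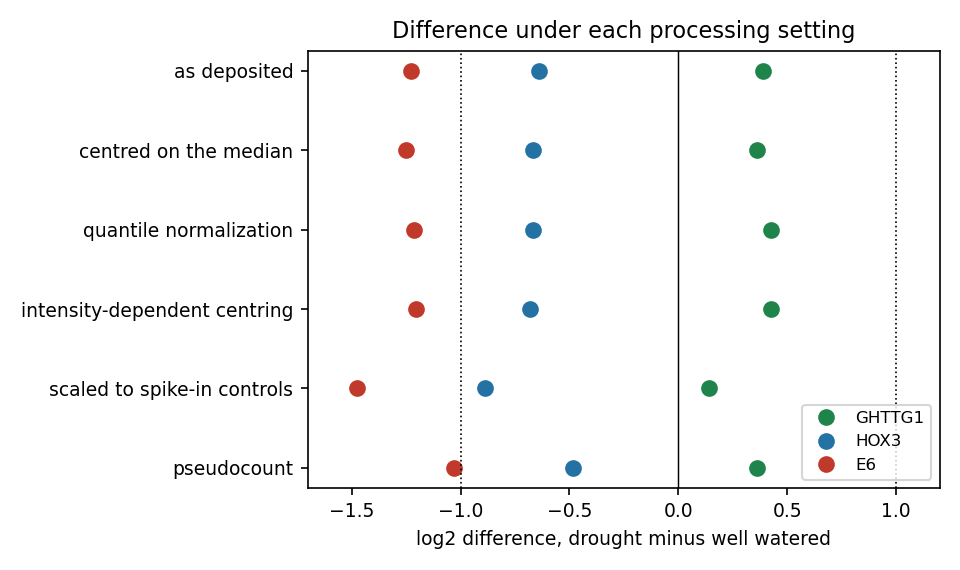
Log2 difference (drought minus well watered) of E6, HOX3 and GHTTG1 as deposited and under 5 other settings, 1 point per gene and setting, with dotted lines at 2-fold. E6 runs from -1.47 to -1.03, HOX3 from -0.89 to -0.49 and GHTTG1 from 0.14 to 0.43.

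The E6 probe set ends in _s_at, the array's mark for probes shared by several transcripts, so its signal may sum related copies. A second probe set with the same transcript cluster number is assigned to no gene in the annotation. Its signal was 4287 in drought leaves and 3717 in well-watered leaves, and its log2 difference was 0.21, or -0.04 against the spike-ins. It did not share the lower drought signal of the E6 probe set. Different genes can share a cluster number, and the second probe set ends in _x_at, the mark for probes that can cross-hybridise, so it cannot be read as E6. HOX3 and GHTTG1 have no second probe set in their clusters, and both end in _at, the mark for probes of 1 transcript.

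RNA quality controls did not rank the arrays alike. The 3-prime to 5-prime signal ratio of the G. hirsutum actin control was 4.09 on the drought array and 14.1 on the well-watered array, and that of ubq11 was 10.2 on the drought array and 5.80 on the well-watered array. Their part in the differences of E6, HOX3 and GHTTG1 was not tested. Of the 8 leaf mesophyll names looked up, RCA1, the gene of rubisco activase, had a probe set, with 20148 in drought leaves and 16617 in well-watered leaves, where the brightest plant probe set reached 22055 in drought leaves and 18970 in well-watered leaves. Names for guard cells and for vascular tissue matched 0 probe sets, so the share of these cells could not be followed. The 2 histone genes on the list for dividing cells were higher in drought leaves, HIS2B by 0.67 and HIS3 by 0.39 on the log2 scale. Over the array, 49.6% of the plant probe sets that reached the minimum were higher. The HIS2B probe set ends in _x_at and the HIS3 probe set in _s_at, so other transcripts may add to their signals. In the fibre and trichome marker list, 7 probe sets of 6 genes were found. Their summed signal was 10983 in drought leaves and 10301 in well-watered leaves. Nearly all of it came from the lipid transfer protein gene LTP3, whose probe sets end in _x_at and may cross-hybridise.

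A wider list of trichome and fibre genes places the 3 beside other genes known from trichomes and fibres, some of which, such as actins, are expressed in most cells. Of 92 names, 23 matched the aliases of 24 probe sets, from 20 genes, and 15 of these probe sets reached the minimum. HOX3 reached it only through its well-watered signal, since its drought signal (66.8) was under 72.3. Of the 15, 8 were higher and 7 lower in drought leaves, with a median log2 difference of 0.03. Over all 11989, 49.6% were higher and 50.4% lower, with a median of -0.01. At 2-fold, 1 was lower (E6) and 0 were higher. Without E6, HOX3 and GHTTG1, 7 of 12 were higher and 5 lower, with a median of 0.04. Against the spike-ins, 4 of the 15 were higher and 11 lower, with a median of -0.22.

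The brightest members of the list were close to level. LTP3, a lipid transfer protein gene whose locus also carries the fibre alias FSLTP3, gave 8264 in drought leaves and 7562 in well-watered leaves on its brighter probe set (log2 difference 0.13), and 2065 and 2030 on the other (0.03). The actin locus ACT1/ACT2/ACT5 gave 3659 in drought leaves and 3114 in well-watered leaves (0.23). These LTP3 and actin probe sets end in _x_at, the mark for probes that can cross-hybridise, so other transcripts may add to their signals. Besides E6 and HOX3, the list member above the minimum and past 1.5-fold was CesA1, a cellulose synthase gene, at 133.9 in drought leaves and 78.8 in well-watered leaves (0.76). Its brighter probe set went the other way, at 254.1 in drought leaves and 331.0 in well-watered leaves (-0.38). The dimmer CesA1 probe set lay within the range of the reporter controls on both arrays. The highest reporter was at 186 on the drought array and at 107.2 on the well-watered array. Over all 11989, the share at least 1.5-fold lower was 9.06% and the share at least 1.5-fold higher was 7.32%.

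The list holds members of the MYB and basic helix-loop-helix families, to which the partners of TTG1 proteins in the Arabidopsis trichome complex belong. They were clear of the reporter controls in 1 case and dim in the others. MYB1 gave 204.0 in drought leaves and 195.5 in well-watered leaves (log2 difference 0.06), above all 51 reporter controls on both arrays. GHDEL61, a basic helix-loop-helix gene, gave 29.4 in drought leaves and 50.9 in well-watered leaves, and myb109, a MYB gene of fibre cells, gave 11.4 in drought leaves and 22.3 in well-watered leaves. The locus MYB5/MYB6 gave 93.0 in drought leaves and 18.0 in well-watered leaves, and the locus MYB5 gave 10.6 in drought leaves and 3.4 in well-watered leaves. These 5 genes were named after their values were seen. The signals of GHDEL61, myb109, MYB5/MYB6 and MYB5 lay below the 95th percentile of the reporter controls on their array, so no direction is read from them.

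For orientation, the named genes nearest to each member in the plane of the 2 log2 signals are listed. They were picked by these signals, so their likeness to the member is set by the choice. For E6 the nearest were CCR1 (distance 0.46), PK1 (0.47) and FeSOD (0.58), and their log2 differences, from -0.58 to -0.41, were all smaller in size than that of E6. For HOX3 they were MPK23 (0.06), Ghfe1 (0.13) and APY1 (0.20), and for GHTTG1 they were GEPH (0.11), AnnGh1 (0.21) and the locus FDH/KCS45 (0.22). Likeness over 2 arrays describes only these signals.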

How the data were processed

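Leaf RNA was hybridised as biotin-labelled cRNA, made from 5.0 µg total RNA per the labels. The deposited intensity values are linear signals. The submitters' processing notes name GCOS and MAS5, without versions. Both arrays share, judging by the values, a trimmed mean of 250.09, so a common scaling is likely but not stated. A deposited list of 110 probe sets gives signals, a detection call and a detection p-value per array, per the file headers. The calls were read at listed signals near those of the 3 genes, and the p-values were not used; listed signals were 0.967 times those of the value table on the drought array and 0.982 times on the well-watered array (medians).

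Samples were grouped by title. The quantity computed was the log2 ratio of the drought over the well-watered signal, without a pseudocount, over 23977 plant probe sets; 155 control probe sets were left out. Probe sets at or above the median of the plant probe sets' mean log2 signals (a signal of 72.3) were called measurable, and 2-fold was the threshold. No test was run, since there is 1 array per group, and the number of arrays limits the precision. Gene names were looked up by identifier, through the platform annotation, in the gene table of assembly Gossypium_hirsutum_v2.1: 697 probe sets have a single gene, all of them in that table, 46 several and 23234 none. No coordinates of that assembly were used. Calculations used numpy 2.4.6, pandas 2.3.3 and statsmodels 0.14.6 (lowess span 0.3), and were tested on simulated data with known differences.

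The members and gene lists were chosen with earlier results of these data known. The rule for named genes took every probe set of the 3 genes, measurable list members past 1.5-fold, the 3 brightest other list probe sets, and for each gene the 3 nearest probe sets of other named genes. Alternatives were quantile normalization, centring on the median or by intensity, scaling to spike-ins, a pseudocount at the 25th percentile of signals, other filters and thresholds, and 1 probe set per gene; a floor at the reporters' 95th percentile was added after seeing the data.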

Additional observations from a re-analysis of the deposited data

How the results depend on the processing

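E6, HOX3 and GHTTG1 kept their sign under median centring, quantile normalization, intensity-dependent centring, spike-in scaling and the pseudocount, none of which deals with background. A floor at the reporters' 95th percentile, chosen after seeing the data, gave -0.59 for E6, under 2-fold, and no fold for HOX3; that limit is higher on the drought array. The array-wide counts at 2-fold, 218 higher and 307 lower (58.5% lower), moved more. They were 102 and 628 against spike-ins (86.0% lower), 110 and 178 with the pseudocount, 3004 and 2838 with no filter, 24 and 43 with a filter at the 75th percentile, 79 and 127 with the median reached on both arrays, and 106 and 129 without probe sets ending in _x_at or _s_at. At 1.5-fold they were 878 and 1086, and at 3-fold 31 and 51. Against spike-ins the list had 4 higher and 11 lower probe sets and a median of -0.22; there the shift of 0.25 in all values accounts for the change. Closeness to background depends on the limit. Against the median of the reporters, the drought signals of E6 and HOX3 were 5.92 and 4.28 times the limit, and against the highest reporter the well-watered signal of HOX3 was 0.971 times it. No paired analysis was possible because each group has 1 array, and no array could be left out for the same reason. Dim signal limits the values of HOX3 on both arrays and of E6 on the drought array.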
